A study of Mus musculus with 4 samples.

Results

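A set of 10 genes of fat storage and lipolysis was followed on 4 microarrays of mouse caecal tissue: Fabp4, Lpl, Adipoq, Plin1, Car3, Cfd, Pnpla2, Lipe, Cidec and Retn. The set was taken by gene symbol, out of 22180 genes that had a probe set naming 1 gene. Of the 10 genes, 9 had such a probe set, 11 probe sets in all, and Cfd (adipsin, the protease factor D of complement) had none and is not analysed here. Each array was hybridised with RNA pooled from 6 mice. The 4 groups were apoE KO mice with prebiotics, apoE KO mice without, WT mice with prebiotics and WT mice without. The KO mice lack apolipoprotein E, the protein by which lipoprotein remnants are recognised and cleared. All mice were C57Bl/6 and 21 weeks of age, and were fed an n-3 PUFA depleted diet (PUFA, polyunsaturated fatty acids), so no group on a complete diet stands behind these values. Prebiotics (Orafti, 250 mg per mouse per day) were given over the last 15 days. Whole caecal tissue was extracted, so epithelium, muscle, vessels and any adhering fat contribute together.

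The labels of the 2 WT arrays conflict: title, source name and treatment give one diet, and the description gives the opposite one. The WT arrays are named below by their titles, and every statement on prebiotics that uses them rests on the titles. With 1 pooled array per group the spread between mice stays hidden, and no p-value measures it. In the prebiotic fit the 1 residual degree of freedom is how the KO and WT prebiotic differences disagree. Limma combines it with a variance shared over all genes (8.2 prior degrees of freedom), so intervals and p-values lean mostly on other genes. Apoe had log2 values of 3.13 and 2.83 on the KO arrays with and without prebiotics, against 4.09 and 3.90 on the WT arrays titled with and without, which follows the genotype labels.

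Fat cells store triglyceride in a droplet coated by perilipins and by CIDE proteins such as Cidec, which lets small droplets fuse into large ones. Lipoprotein lipase (Lpl) frees fatty acids from circulating lipoproteins at the vessel wall, and Fabp4 carries fatty acids inside the cell. When fuel is needed, the lipases Pnpla2 (ATGL), Lipe (hormone-sensitive lipase) and Mgll take the triglyceride apart in turn. Fat cells also secrete adiponectin (Adipoq), adipsin (Cfd) and, in mice, resistin (Retn). Several of these genes are also used outside fat: Fabp4 in endothelium and macrophages, Lpl in muscle and macrophages, and Pnpla2 in most tissues. The nuclear receptor PPAR gamma drives many of them in fat cells, together with C/EBP factors.

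Genes tied to fat cells were mixed: some lay at background on these arrays and others were well detected. Adipoq, which only fat cells make in quantity, had log2 values of 2.82 and 2.74 on the KO arrays with and without prebiotics, against 2.80 and 2.97 on the WT arrays titled with and without. All 4 values lay below the array's median over probe sets that name 1 gene (2.99 to 3.01), which serves here as a mark for background. Plin1, the main perilipin of fat cells, had 3.14 and 3.05 on the KO arrays with and without prebiotics, against 2.98 and 2.81 on the WT arrays titled with and without, so it lay at that median. Lipe had 3.46 and 3.32 on the KO arrays with and without prebiotics, against 3.37 and 3.36 on the WT arrays titled with and without, at percentiles 61.1 to 63.0 of these probe sets. Of the further fat cell markers, leptin (Lep) lay below the median on all 4 arrays, at 2.64 to 2.95. Plin4 had 3.19 to 3.40 and the insulin-regulated glucose transporter Slc2a4 3.02 to 3.66. Ucp1, the uncoupling protein of brown fat, had 2.67 to 2.87. Whether these probe sets respond to their transcripts was not tested. The other 6 genes (Fabp4, Lpl, Cidec, Retn, Car3 and Pnpla2) had a probe set well above the median on every array, at percentiles 75.2 to 93.4. Cidec and Retn, named above as genes of fat cells, are among these 6. Because the set was mixed, the genes are named by their roles below, not as a fat cell signature.

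**Figure D1:**
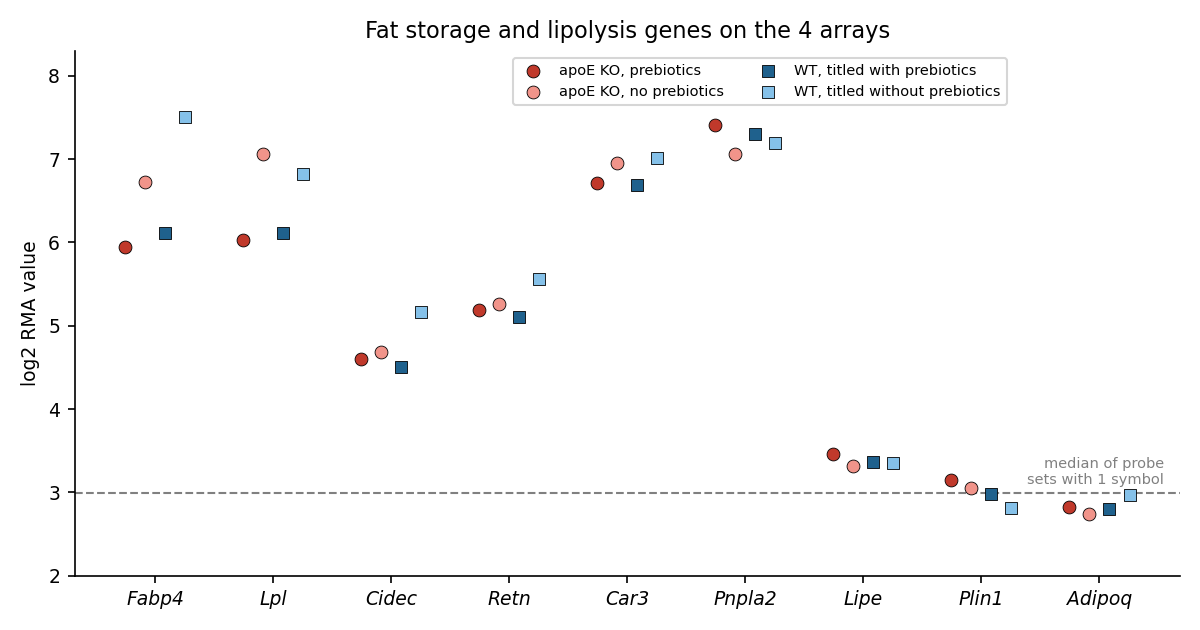
Log2 RMA values (vertical axis) of the 9 genes with a probe set on the 4 arrays, 1 point per pooled array, with the median of the probe sets naming 1 gene as a dashed line. Fabp4, Lpl, Cidec, Retn, Car3 and Pnpla2 stand above the line, Lipe slightly above it, and Plin1 and Adipoq on or below it.

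Promoter sequence was held for 7 of the 10 genes in the RefSeq table of GRCm38.p6, with 9 start sites. Fabp4, Lpl and Car3 had no entry. Shown are the 250 bases before each start of Cidec, Retn and Pnpla2, the well detected genes among the 7, of which Cidec and Retn were lower and Pnpla2 higher on both prebiotic arrays. Sequences run 5′ to 3′ on the gene's strand, and capitals mark a match to TTGCNNAA (either strand), a form of the C/EBP motif. The Cidec starts cover chr6:113435761-113436010 and chr6:113434765-113435014 on the minus strand, Retn chr8:3655520-3655769 and Pnpla2 chr7:141454938-141455187 on the plus strand.
Cidec, upstream start: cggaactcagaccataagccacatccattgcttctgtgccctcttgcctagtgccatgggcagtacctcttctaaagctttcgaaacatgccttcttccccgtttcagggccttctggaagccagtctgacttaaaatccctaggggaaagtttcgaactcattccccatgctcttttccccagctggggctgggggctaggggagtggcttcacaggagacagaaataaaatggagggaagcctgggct
Cidec, downstream start: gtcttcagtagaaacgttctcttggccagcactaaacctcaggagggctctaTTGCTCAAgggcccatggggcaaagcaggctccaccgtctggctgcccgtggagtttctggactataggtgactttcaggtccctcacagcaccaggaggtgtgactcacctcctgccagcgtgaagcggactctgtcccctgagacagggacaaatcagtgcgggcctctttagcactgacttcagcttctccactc
Retn: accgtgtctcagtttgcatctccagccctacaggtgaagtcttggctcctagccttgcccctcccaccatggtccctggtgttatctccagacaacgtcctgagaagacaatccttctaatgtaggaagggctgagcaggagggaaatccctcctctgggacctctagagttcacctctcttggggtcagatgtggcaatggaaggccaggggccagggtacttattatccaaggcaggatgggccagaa
Pnpla2: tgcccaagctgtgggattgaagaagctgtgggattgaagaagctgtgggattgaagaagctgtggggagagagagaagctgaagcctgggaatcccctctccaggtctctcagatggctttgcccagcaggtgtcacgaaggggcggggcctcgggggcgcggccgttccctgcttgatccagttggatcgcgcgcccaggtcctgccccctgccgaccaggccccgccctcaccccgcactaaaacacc

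Among these 4 windows only the downstream Cidec start held TTGCNNAA, 198 bases before the start, and of the 9 windows of the 7 genes the Plin1 start held it as well, at 2 places. In the same 250-base window, 9.56% of 32851 mouse promoters hold that motif. The half-site AGGTCA (14.0% of promoters), the PPAR-type repeat AGGNCANAGGNCA (0.338%) and TATAAA (12.4%), each sought on both strands, were in none of the 9 windows. The half-site and the repeat can overlap. No window of Fabp4, Lpl or Car3 could be searched. These matches describe letters in a window and say nothing of a factor's binding.

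Fabp4, the fatty acid carrier, was lower with prebiotics. It had a log2 value of 5.94 on the KO array with prebiotics against 6.73 on the KO array without, and 6.12 on the prebiotic-titled WT array against 7.50 on the other WT array. Both prebiotic arrays lay below both others, and the WT array titled without prebiotics was the highest by a wide margin. The difference was -0.78 in the KO pair and -1.39 in the WT pair, and -1.09 over both genotypes (SE 0.15, 95% interval -1.43 to -0.74, limma adjusted p = 0.011, lower in 2 of 2 pairs), a 2.12-fold lower value.

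Lpl, the lipase that feeds fatty acids from lipoproteins into tissues, was also lower. It had 6.03 on the KO array with prebiotics against 7.06 on the KO array without, and 6.11 on the prebiotic-titled WT array against 6.82 on the other WT array. Again both prebiotic arrays lay below both others, but here the highest value was that of the KO array without prebiotics. The difference over both genotypes was -0.87 (SE 0.13, 95% interval -1.16 to -0.59, limma adjusted p = 0.014, lower in 2 of 2 pairs). A further Lpl probe set had 2.72, 2.86, 2.62 and 2.75 in the same order of arrays, all below the median, and with the mean over both probe sets the difference was -0.51 (limma adjusted p = 0.11).

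In all, 8 of the 10 genes passed the filter on low values and were tested, 2 fell (Fabp4 and Lpl) and 0 rose. Over all 13083 genes tested, 0.26% were called lower and 0.994% higher, 1.25% in either direction. With each array centred on its median, 108 genes were called lower and 216 higher, against 34 and 130 as deposited, and Fabp4 and Lpl were called in both. The median difference of the 8 genes was -0.28, beside 0.02 over all genes tested, with 5 of the 8 below 0, beside 44.8% of all genes. Both calls rest on the titles and on the variance model. With the WT arrays exchanged, as their descriptions have it, the difference was 0.30 for Fabp4 and -0.16 for Lpl (limma adjusted p = 1 for both), and with a constant variance prior in place of a trend limma gave an adjusted p of 0.072 for both.

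Cidec and Retn had small differences in KO and larger ones in WT. Cidec had 4.60 on the KO array with prebiotics against 4.68 on the KO array without, and 4.51 on the prebiotic-titled WT array against 5.17 on the other WT array. Retn had 5.18 against 5.27 on the KO arrays and 5.10 against 5.56 on the WT arrays, in the same order. For both genes 3 arrays lay close together and the WT array titled without prebiotics stood above them. Over both genotypes the difference was -0.37 for Cidec (95% interval -0.74 to -0.01, limma adjusted p = 0.35) and -0.27 for Retn (95% interval -0.60 to 0.05, limma adjusted p = 0.46), so neither passed.

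Car3, a carbonic anhydrase abundant in fat and in slow muscle, had 6.72 on the KO array with prebiotics against 6.96 on the KO array without, and 6.69 on the prebiotic-titled WT array against 7.01 on the other WT array. The KO and WT pairs differed by nearly the same amount, -0.24 and -0.32. The difference over both genotypes was -0.28 (95% interval -0.53 to -0.03, limma adjusted p = 0.30). A further Car3 probe set lay at 2.74 and 2.68 on the KO arrays with and without prebiotics, against 2.90 and 3.34 on the WT arrays titled with and without.

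The lipases Pnpla2 and Lipe had differences above 0, and neither passed the test; Mgll, the lipase of the last step, was lower and is given with the related genes. Pnpla2, which takes off the first fatty acid, had 7.40 on the KO array with prebiotics against 7.06 on the KO array without, and 7.30 on the prebiotic-titled WT array against 7.20 on the other WT array. Both prebiotic arrays had the higher values, with a difference of 0.22 over both genotypes (95% interval -0.03 to 0.47, limma adjusted p = 0.43). Lipe, which acts next, had a difference of 0.08 (95% interval -0.23 to 0.38, limma adjusted p = 0.87). Plin1 had 0.13 (95% interval -0.17 to 0.42, limma adjusted p = 0.74), at values too close to background for its size to be read.

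**Figure D2:**
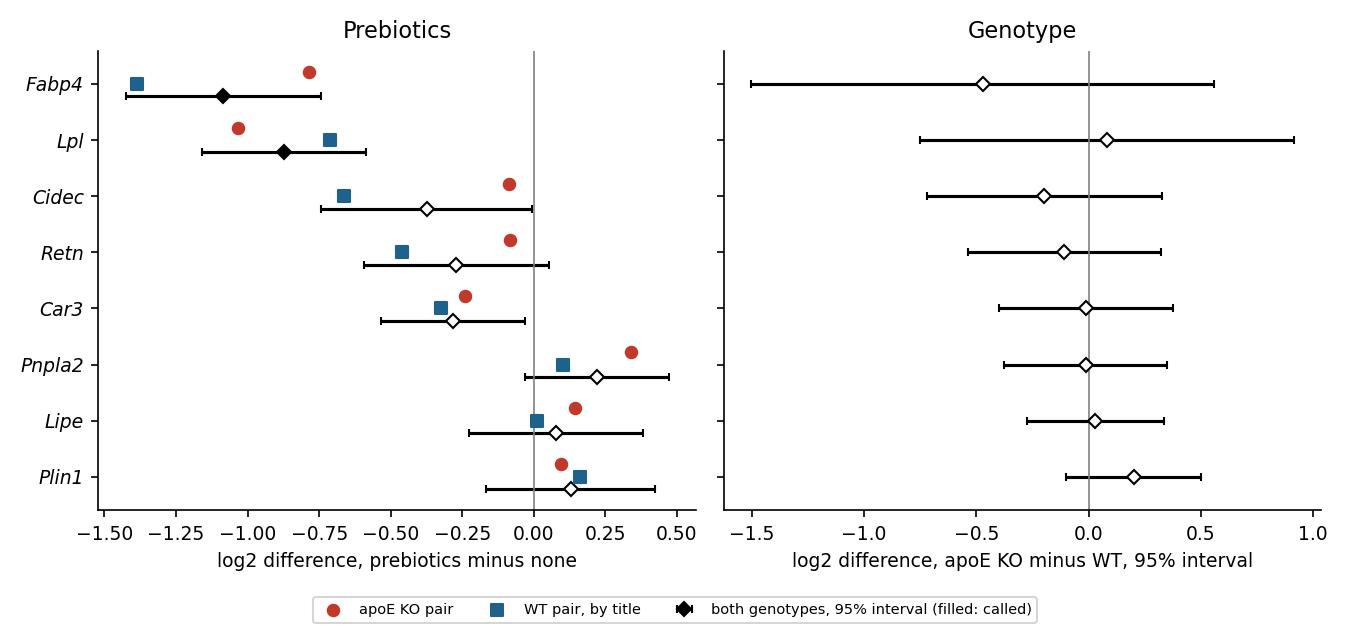
Log2 differences of the 8 tested genes, for prebiotics minus none (left; KO pair, WT pair by title, and both genotypes with the limma 95% interval) and for apoE KO minus WT (right, with the limma 95% interval of the fit without a prebiotic term). For prebiotics, the intervals of Fabp4 and Lpl lie farthest below 0 and are the called ones (filled), and for genotype every interval drawn spans 0.

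At the level of single pairs, a 2-fold limit was used and no test can be made. In KO mice 1 of the 8 genes, Lpl, was at least 2-fold lower with prebiotics (2.05-fold), beside 0.139% of 12216 genes. On the WT array titled with prebiotics 1 of the 7 genes that passed the filter in that pair, Fabp4, was at least 2-fold lower (2.61-fold), beside 0.18% of 12223 genes. The median difference was -0.08 over the genes in the KO pair and -0.46 in the WT pair, beside 0.04 and 0.02 over all genes. The KO difference minus the WT difference was 0.60 for Fabp4, 0.58 for Cidec and 0.38 for Retn, and -0.32 for Lpl. With no residual degree of freedom these values have no test, and they are the only residual of the prebiotic fit over both genotypes.

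None of the 8 genes was called between genotypes. Apoe, the gene knocked out, was not called in this fit either (difference -1.02, limma adjusted p = 0.78). The lack of a call therefore does not show that a gene is unchanged. Fabp4 averaged 6.34 on the KO arrays and 6.81 on the WT arrays, a difference of -0.47 (95% interval -1.50 to 0.56, limma adjusted p = 0.999). It was -0.17 between the arrays with prebiotics and -0.77 between those without. Lpl averaged 6.55 on the KO arrays and 6.47 on the WT arrays (difference 0.08, 95% interval -0.75 to 0.92). For Cidec, Retn, Car3, Pnpla2, Lipe and Plin1 the differences ran from -0.20 to 0.20. Over all 13083 genes limma called 0% between genotypes, with 430 at an unadjusted p under 0.05. This fit has no prebiotic term. With prebiotic as a block, limma called 8 genes higher and 4 lower, 0 of them in the set, and Fabp4 had an unadjusted p of 0.012 and an adjusted p of 0.56. With the block and the WT arrays exchanged, 0 genes were called in either direction, and Fabp4 had an unadjusted p of 0.39. Lipe, Plin1 and Pnpla2 lie on the chromosome of Apoe, chromosome 7, with 46, 383 and 832 tested genes between them and Apoe. The genotype difference was 0.03 for Lipe (95% interval -0.28 to 0.34), 0.20 for Plin1 and -0.01 for Pnpla2.

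Related genes of fat handling were listed by role. Uptake and activation of fatty acids had 1 of 6 tested genes lower and 0 higher. The lower one was Cd36, the fatty acid receptor at the cell surface. Cd36 had 5.35 on the KO array with prebiotics against 6.28 on the KO array without, and 4.82 on the prebiotic-titled WT array against 5.80 on the other WT array; the difference was -0.93 in the KO pair and -0.98 in the WT pair. Over both genotypes it fell by 0.95 (SE 0.13, limma adjusted p = 0.0089), and with a constant variance prior its limma adjusted p was 0.044. The fatty acid transporter Slc27a4 had a difference of 0.44 (limma adjusted p = 0.096).

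Among partners of lipolysis, 1 of 7 tested genes was lower and 0 were higher. Mgll, which releases the last fatty acid from the glycerol, had 6.70 on the KO array with prebiotics against 7.30 on the KO array without, and 6.63 on the prebiotic-titled WT array against 7.59 on the other WT array. Both prebiotic arrays were again the low ones, with a difference of -0.78 (SE 0.12, limma adjusted p = 0.019). The ATGL activator Abhd5 had -0.05 (limma adjusted p = 0.93) and the ATGL inhibitor G0s2 0.15 (limma adjusted p = 0.68). Of the lipid droplet proteins 0 of 8 were called, with Plin2, the perilipin of most tissues outside fat, at -0.44 (limma adjusted p = 0.20) and Plin3 at 0.34 (limma adjusted p = 0.25).

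Triglyceride synthesis had 2 of 11 tested genes higher and 0 lower. Dgat1, which adds the last fatty acid to make triglyceride, had 6.78 on the KO array with prebiotics against 5.97 on the KO array without, and 6.71 on the prebiotic-titled WT array against 5.82 on the other WT array. Pck1, which makes glyceride-glycerol from small precursors as well as glucose, had 6.21 against 5.44 on the KO arrays and 6.29 against 5.51 on the WT arrays, in the same order. For each gene both prebiotic arrays lay above both others. Dgat1 rose by 0.85 (SE 0.12, limma adjusted p = 0.011) and Pck1 by 0.78 (SE 0.12, limma adjusted p = 0.020). Dgat2, the other enzyme of this step, had -0.14 (limma adjusted p = 0.61).

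Of the genes that handle Lpl itself, 1 of 7 tested was higher and 0 were lower. The higher one was Apoc2, the cofactor Lpl needs, which had 4.71 on the KO array with prebiotics against 3.49 on the KO array without, and 3.98 on the prebiotic-titled WT array against 3.18 on the other WT array. Apoc2 rose by 1.01 (SE 0.15, limma adjusted p = 0.016), from values near background. Angptl4, an Lpl inhibitor, had 3.87 and 3.86 on the KO arrays with and without prebiotics, against 3.71 and 5.73 on the WT arrays titled with and without. Only the WT array titled without prebiotics was high, and limma gave an adjusted p of 0.25. Gpihbp1, which anchors Lpl to capillary endothelium, lay at 2.80 to 2.86, below the median on every array.

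Transcription factors of fat cells had 0 of 7 tested genes called. Pparg, which colonic epithelium also expresses, had 8.22 and 8.21 on the KO arrays with and without prebiotics, against 8.20 and 8.19 on the WT arrays titled with and without, so its 4 values lay within 0.04. Adipokine and insulin response genes had 0 of 5 called, brown fat genes 0 of 4, the other FABP genes 0 of 6, the resistin family 0 of 2 and the complement alternative pathway 0 of 2. Fabp2, the FABP of enterocytes, had 11.66, 11.53, 11.68 and 11.66 on the same arrays (difference 0.08, limma adjusted p = 0.52). Retnlb, the resistin-like protein of goblet cells, had 8.58 on the KO array with prebiotics and 9.07 to 9.09 on the other 3 (difference -0.25, limma adjusted p = 0.37). Of 13 tested PPAR targets of fatty acid use, 4 fell and 0 rose, and 13 of 13 had a difference below 0. Those that fell were Pdk4 (-1.21), a kinase that holds back glucose oxidation, the acyl-CoA thioesterase Acot1 (-0.99), and Ehhadh (-1.12) and Hadha (-0.39) of fatty acid oxidation. The list includes Plin2 and Angptl4, also counted above. Of the 17 genes called in the set, in these lists and in the cell type lists that follow, 0 were called with the WT arrays exchanged and 2, Cd36 and Col1a1, with a constant variance prior. With no filter on low values 10 of the 17 were called, Fabp4 and Lpl among them, and Mgll, Pck1, Acot1, Car4, Myh11, Myl9 and Synpo2 were not. With the filter at the 75th percentile 15 were called, and Apoc2 (limma adjusted p = 0.0503) and Acot1 (0.0707) were not.

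**Figure D3:**
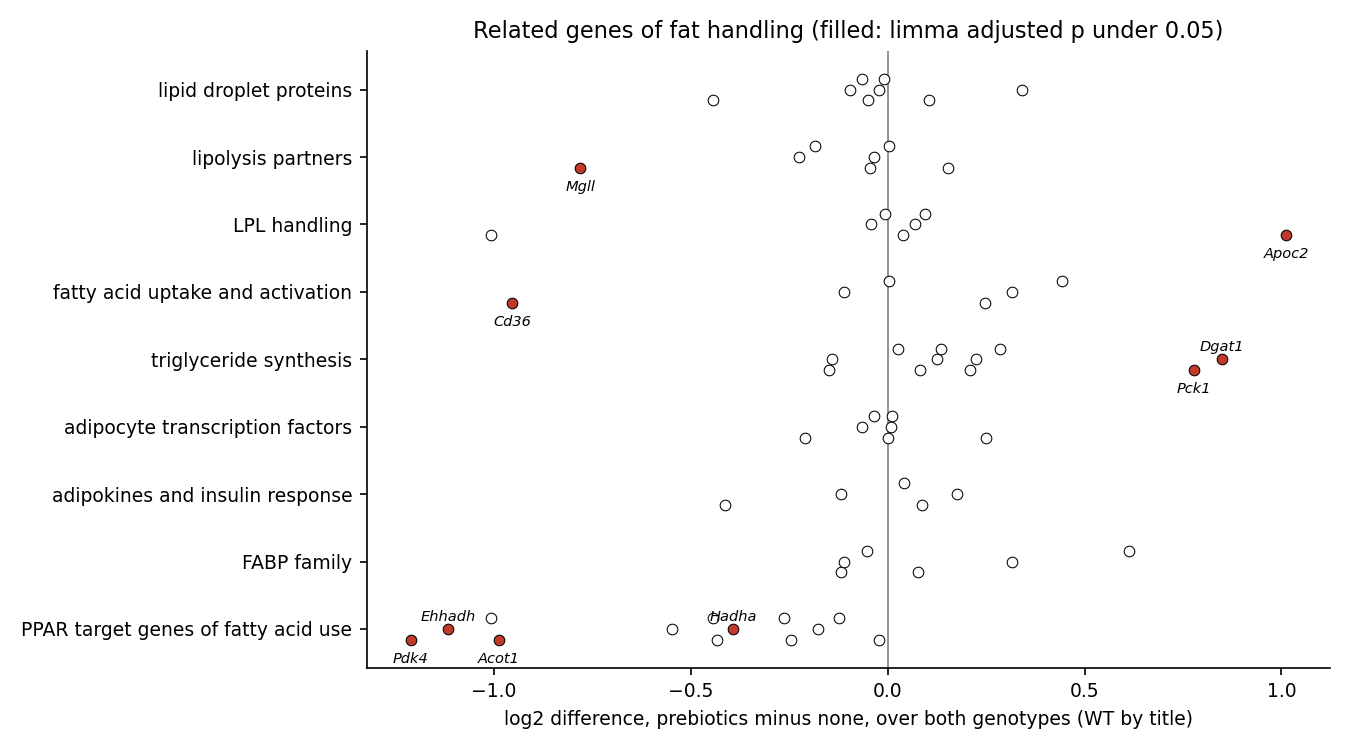
Log2 difference for prebiotics minus none over both genotypes (horizontal axis, WT by title) of the tested genes in 9 lists of fat handling, 1 point per gene, filled where limma's adjusted p was under 0.05. Cd36, Mgll and PPAR targets lie on the low side, and Dgat1, Pck1 and Apoc2 on the high side.

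Some markers of other tissue layers moved in the prebiotic comparison. Between genotypes (KO minus WT), 8 of 8 smooth muscle markers lay above 0, with a median of 0.38. So did 8 of 8 tested fibroblast and preadipocyte markers, with a median of 0.21, and 0 of either list were called. The values that follow are for prebiotics. Of 8 smooth muscle markers 3 fell and 0 rose, Myh11 (-0.41), Myl9 (-0.45) and Synpo2 (-0.78). Differences lay below 0 for 7 and above 0 for 1, with Acta2 (-0.08), Actg2 (-0.05) and Des (0.09) close to 0. The summed level of the smooth muscle markers on the linear scale was 4942 and 3835 on the KO and WT arrays with prebiotics, against 5553 and 4617 on those without. Of 9 markers of enterocytes and colonocytes 2 rose and 0 fell, Slc26a3 (0.58) and Car4 (0.59), with sums of 17565 and 17166 on the KO and WT arrays with prebiotics, against 14815 and 15162 on those without. Here 8 differences lay above 0 and 1 below, with Epcam (0.08), Cdh1 (0.01) and Krt8 (-0.07) close to 0. Of 8 tested fibroblast and preadipocyte markers 1 rose and 0 fell, Col1a1 (1.19), with sums of 1061 and 851 on the KO and WT arrays with prebiotics, against 981 and 704 on those without. Among these 7 differences lay above 0 and 1 below, that of Pdgfra (-0.42, limma adjusted p = 0.19). Endothelial markers, of interest because endothelium can hold Fabp4, Cd36 and bound Lpl, had 0 of 10 called. Kdr, the VEGF receptor, had the difference farthest from 0, -0.65 (limma adjusted p = 0.057). Of the 10 markers 7 had a difference below 0 and 3 above, with a median of -0.07. Their sums were 199.8 and 209.8 on the KO and WT arrays with prebiotics, against 246 and 219 on those without. Macrophage markers had 0 of 9 called, with sums of 331 and 327 on the KO and WT arrays with prebiotics, against 338 and 246 on those without. Fat cell markers themselves (the set with Lep, Pparg, Plin4 and Slc2a4) had 13 of 14 genes with a probe set. Of these 2, Adipoq and Lep, lay below the median on all 4 arrays. Over all 22180 genes, 13083 reached the median on 1 or more arrays. Of 11 tested fat cell markers 2 fell, Fabp4 and Lpl, and 0 rose, with 7 differences below 0 and 4 above. Sums were 815 and 799 on the KO and WT arrays with prebiotics, against 913 and 998 on those without. Tested markers of skeletal muscle (4), B cells (5), T cells (3), pancreatic acini (1) and goblet cells (6) had 0 called. B cell markers still differed between arrays, with sums of 34.7 and 70.2 on the KO and WT arrays with prebiotics, against 63.1 and 67.1 on those without. In the KO pair 4 of 4 were lower, and in the WT pair 2 of 5. Mesothelial markers had 4 of 8 below the median on all 4 arrays and 0 called, and among them only Cldn15 lay high, at 7.33 to 7.81. Whether adhering fat was present was not tested. In bulk tissue, fewer cells of a type and less RNA per cell cannot be told apart. The part of these layers in the falls of Fabp4 and Lpl was not tested.

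The profile of Fabp4 over the 4 arrays, centred on its mean, was set against that of every tested gene outside the set by Euclidean distance. The 5 nearest were the small nucleolar RNA Snord17 (distance 0.21 log2 units), Pdk4 (0.26), Gclc (0.26), which catalyses the limiting step of glutathione synthesis, the small nucleolar RNA Snora73b (0.30) and the aldo-keto reductase Akr1b8 (0.35). Gclc had 9.48 on the KO array with prebiotics against 10.11 on the KO array without, and 9.39 on the prebiotic-titled WT array against 10.68 on the other WT array. All 5 were called lower with prebiotics, which a short distance to Fabp4 itself favours. Within the set, Lpl (0.75) and Cidec (0.76) were nearest to Fabp4, both at percentile 0.5 of the distances of all tested genes, then Retn (0.90) and Car3 (0.96). Lipe (1.29), Pnpla2 (1.40) and Plin1 (1.43) were farther off, at percentiles 55.5, 77.1 and 81.5 of the distances of all tested genes. Distances over 4 arrays are a description and carry no test.

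**Figure D4:**
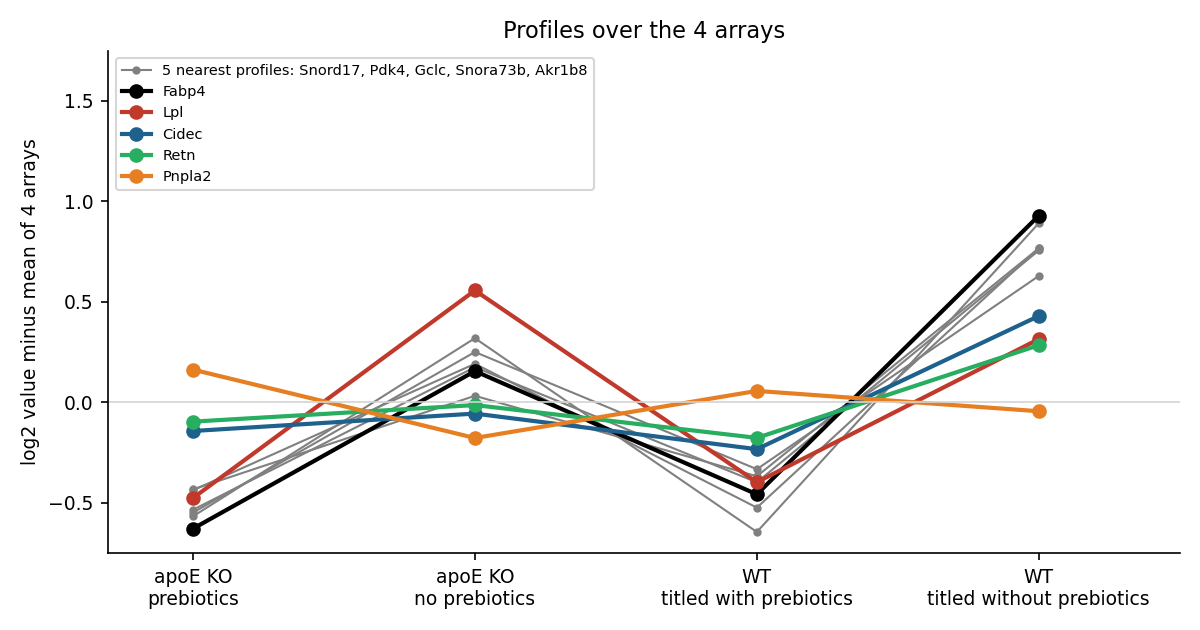
Log2 values minus each gene's mean (vertical axis) on the 4 arrays, for Fabp4, Lpl, Cidec, Retn and Pnpla2 and for the 5 genes nearest to Fabp4 (grey). Fabp4, Cidec and the grey profiles peak on the WT array titled without prebiotics, Lpl peaks on the KO array without prebiotics, and Pnpla2 is highest on the KO array with prebiotics.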

How the data were processed

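Log2 expression values were deposited as 1 table of 41345 probe sets on 4 arrays. The authors made them with RMA in Affymetrix software (Expression Console), per the submitters' processing notes; versions and genome build are not given in the sources used here. Per the labels' protocols, RNA of 6 mice per group was pooled, and 100 ng was labelled per array. RMA compresses differences close to background, and the log base was taken from RMA. The number of arrays limits the precision.

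Probe sets were named through the platform annotation: 23521 had 1 symbol, 1814 several and 16010 none. RefSeq gene identifiers (GRCm38.p6) matched for 9 of 9 genes of the set. Each gene was represented by its brightest probe set on average. Genes at or above the median of named probe sets, on 1 or more of the arrays compared, were tested. In limma 3.58.1 (R 4.3.3), lmFit and eBayes with a trend were fitted over all genes, with genotype and prebiotic as terms (1 residual degree of freedom) or genotype alone (2). Tests were two-sided, adjusted by Benjamini-Hochberg, with calls at an adjusted p under 0.05; the fits were tested on simulated data. Pairs of single arrays have no test. Named genes were the set, Apoe, called and up to 4 leading genes of each list, and the 5 nearest to Fabp4, of which not all are printed; Gpihbp1, Abhd5, Dgat2, Pparg, Lep, Ucp1, Plin4 and Fabp2 were added for their role. The genes and lists were chosen with earlier results of these data known. Alternatives were other filters, probe set means, cyclic loess, median centring, exchanged WT labels, no trend, a prebiotic block and arrays left out.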

Additional observations from a re-analysis of the deposited data

Results flagged for a closer look

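For 6 genes the KO minus WT difference had opposite signs with and without prebiotics. The difference of the differences was 0.58 for Cidec, 0.38 for Retn, -0.32 for Lpl, 0.24 for Pnpla2, 0.13 for Lipe and 0.084 for Car3, on the log2 scale. With 1 array per group none of these was tested. For Cidec and Retn the KO arrays lay above the WT array titled with prebiotics, by 0.09 and 0.08, and below the WT array titled without, by -0.49 and -0.30 (KO minus WT, at the same diet).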

How the results depend on the processing

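For prebiotics over both genotypes, 2 of the tested genes of the set were lower as reported. That count was 1 with the mean over probe sets (Lpl missed), 0 with the WT arrays exchanged and 0 without a trend, and it was 2 under both filters, cyclic loess and median centring. Over all genes, 130 were called higher and 34 lower, against 68 and 17 with no filter, 216 and 108 with median centring, 0 and 0 with the WT arrays exchanged and 21 and 4 without a trend. With the WT arrays exchanged, differences changed sign for Fabp4 (0.30), Cidec (0.29), Retn (0.19), Car3 (0.042) and Plin1 (-0.033). Leaving out 1 array leaves a single pair and no test: Fabp4 then ranged from -1.39 to -0.78, Lpl from -1.03 to -0.71 and Cidec from -0.66 to -0.09. In the KO pair, the mean over probe sets put 0 genes of the set at 2-fold lower, with Lpl at -0.59. In the WT pair, exchanging the labels turned every sign by construction, with Fabp4 at 1.39, 1 gene of the set higher and 0 lower, and 22 and 41 genes higher and lower over all.

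For genotype, leaving out 1 array gave 0 to 5 genes higher and 0 to 2 lower over all genes, the 5 without the KO array kept without prebiotics, and 0 of the set. The differences then ranged from -1.17 to 0.22 for Fabp4, -0.43 to 0.60 for Lpl, -0.53 to 0.13 for Cidec, -0.34 to 0.12 for Retn, -0.17 to 0.15 for Car3, -0.18 to 0.16 for Pnpla2 and -0.042 to 0.10 for Lipe. With prebiotic as a block 8 genes were higher and 4 lower, 0 of the set, and with the WT arrays exchanged as well 0 and 0. The causes were not tested. Values near background (Adipoq, Plin1, Lipe) set the lower limit of what these arrays can show. No paired analysis was possible by replicate number because each group had 1 array; the prebiotic fit compares arrays within genotype through its genotype term.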
